A study of Mus musculus with 7 samples.

Results

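Meiotic entry, sister chromatid cohesion and the synaptonemal complex were followed through 10 genes of the fetal mouse testis: Stra8, Rec8, Smc1b, Stag3, Hormad1, Sycp1, Sycp2, Sycp3, Syce1 and Syce2. They were taken by symbol from a table of 24739 genes, each had 1 row there, and all 10 were among the 13988 genes with enough expression to test. Transcripts were measured by RNA-Seq of rRNA-depleted total RNA from whole testes of C57BL/6 mice at embryonic day 14.5, with 1 pair of testes from 1 embryo per library. The wild-type (WT) group had 3 libraries, and the Mutant group had 4 libraries from Glis3 zf5/zf5 embryos, which carry on both copies the zf5 allele of the Krüppel-like zinc finger gene Glis3, a mutation of the whole animal and not of one cell type. The zf5 allele lacks exon 4 with flanking parts of introns 3 and 4, so a value over the whole Glis3 gene also counts what remains of its transcript. Germ cells and somatic cells were not separated, so each value is that of a mixed tissue. The question was whether the 10 genes moved together between the groups or split by direction.

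As background, XX germ cells of the mouse enter meiosis in the fetal ovary, whereas XY germ cells in the fetal testis arrest in mitosis and enter meiosis only after birth. STRA8 is a transcriptional activator of the meiotic programme that is induced by retinoic acid. Meiotic chromosomes are held by a cohesin complex in which the germ cell subunits REC8, SMC1B and STAG3 stand in for RAD21, SMC1A and STAG1 or STAG2 of mitotic cohesin. HORMAD1, SYCP2 and SYCP3 belong to the axis along which chromatin loops are anchored, SYCP1 forms the transverse filaments that join paired axes, and SYCE1 and SYCE2 lie in the central element between them. Transcripts of several of these genes are present in fetal germ cells of both sexes before any synaptonemal complex is built.

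Stra8 and Rec8 were higher in every Mutant library than in every WT library, while the cohesin genes Smc1b and Stag3 and the central element gene Syce1 were lower in every Mutant library. Sycp1, Sycp2 and Sycp3 were clearly above the mutants in 2 of the 3 WT libraries and at the mutant level in the third, and Hormad1 had the same arrangement with a smaller difference. Syce2, the most abundant of the 10, was nearly level. None of the 10 passed an adjusted p of 0.05 in limma across all genes with all 7 libraries, where 0.00715% of the genes tested did. At an unadjusted p under 0.05, limma had 2 of the 10 higher (8.21% of all genes tested) and 4 lower (8.79% of all genes tested).

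The library labelled WT 3 stood apart from WT 1 and WT 2 in its Glis3 level. The targeted gene Glis3 had 7.63 and 6.89 FPKM in the libraries labelled WT 1 and WT 2 and 2.91 FPKM in the library labelled WT 3. It had 2.66 to 3.86 FPKM in the Mutant libraries. FPKM are fragments per kilobase of transcript, scaled between libraries by the authors' software. The WT 3 level lay within the Mutant range, unlike those of WT 1 and WT 2, so the values of the 10 genes are also given without WT 3. The cause of this level was not tested. Over all genes tested, 51.4% had the WT 3 value within the Mutant range. The same share was not computed for WT 1 and WT 2, so it does not set WT 3 apart. The libraries had 18644 to 19081 genes above 0 FPKM and 3454317 to 4670830 reads in repeat elements. Read totals behind the FPKM are not known. The steps between low values put the depth of the other libraries at 0.783 to 0.925 times that of WT 1. This estimate is rough, as the most common ratio held 27 to 63 of the 645 to 738 low values compared per library. Summed FPKM were 694243 in WT 1 and 776951 to 1018678 in the other libraries. The WT and Mutant libraries all carried transcripts of the Y-linked genes Ddx3y, Eif2s3y, Kdm5d and Uty, and Xist did not exceed 0.12 FPKM.

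The stretches before the start sites of Stra8 and Rec8, which were higher in the mutants, of Smc1b, which was lower, and of Sycp3, which divided the WT libraries, are shown because these are the genes on which the split turns. Each run holds the 250 bases that end just before the annotated start site, written 5′ to 3′ on the strand of the gene, from RefSeq on GRCm38.p6 (Stra8 chr6:34920698-34920947, plus strand; Rec8 chr14:55617916-55618165, plus strand; Sycp3 chr10:88459337-88459586, plus strand; Smc1b chr15:85131958-85132207, minus strand). All 4 lie upstream of the gene, outside exons of that gene. Capitals mark AGGTCA, the nuclear receptor half-site, TCCCGC, the E2F core, and CACGTG, the E-box, on either strand, so that GCGGGA is a TCCCGC on the opposite strand.
Stra8: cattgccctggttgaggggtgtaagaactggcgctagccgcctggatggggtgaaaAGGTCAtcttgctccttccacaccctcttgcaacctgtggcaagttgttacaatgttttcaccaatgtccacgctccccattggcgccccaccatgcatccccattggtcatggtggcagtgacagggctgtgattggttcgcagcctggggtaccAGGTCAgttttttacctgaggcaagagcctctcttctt
Rec8: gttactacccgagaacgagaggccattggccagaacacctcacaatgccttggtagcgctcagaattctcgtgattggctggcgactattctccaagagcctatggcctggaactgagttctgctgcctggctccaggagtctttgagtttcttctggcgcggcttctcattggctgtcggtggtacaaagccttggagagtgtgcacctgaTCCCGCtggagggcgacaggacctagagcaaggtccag
Sycp3: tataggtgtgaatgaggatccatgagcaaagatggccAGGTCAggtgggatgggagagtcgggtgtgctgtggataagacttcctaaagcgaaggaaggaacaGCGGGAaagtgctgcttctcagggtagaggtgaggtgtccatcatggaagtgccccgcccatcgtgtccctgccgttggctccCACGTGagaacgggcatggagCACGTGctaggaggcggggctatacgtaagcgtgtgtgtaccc
Smc1b: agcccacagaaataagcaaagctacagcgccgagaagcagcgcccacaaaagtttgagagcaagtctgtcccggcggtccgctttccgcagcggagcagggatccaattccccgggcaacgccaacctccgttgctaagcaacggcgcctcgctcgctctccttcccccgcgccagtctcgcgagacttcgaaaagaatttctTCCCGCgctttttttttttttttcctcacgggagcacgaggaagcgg
The Stra8 stretch held AGGTCA beginning 194 and 38 bases before the start site, and the Rec8 stretch held 1 TCCCGC beginning 38 bases before it. Sycp3 had 2 E-boxes, beginning 64 and 43 bases before the start site, and Smc1b had 1 TCCCGC at 47 bases. Windows of 300 bases, from 250 before to 50 after the start site, were searched on both strands. All 10 genes had a window, and for the 2 genes with more than 1 start site the first listed was counted. CACGTG was in 4 of the 10 windows, against 7.15% of 32851 windows of the genome. TCCCGC was in 7 of the 10 (20% of all windows), AGGTCA in 3 of the 10 (16.3% of all windows), CNCCTCAG, a motif given for STRA8, in 1 of the 10 (7.94%), and TGGGGGGT, the core of a GLIS site, in none of the 10 (1.53%). The palindrome CACGTG reads the same on both strands, no search letters contained another motif, and N stands for any base. A match says that the letters are there, not that a factor binds. CACGTG and TCCCGC both contain CG. The counted windows of the 10 genes held 10 to 30 CG pairs, against a median of 7 and an upper quartile of 20 over all windows. Windows of like CG content were not compared, so these shares do not show an excess of either motif. AGGTCA was in Stra8, Sycp3 and Hormad1. The E-box was in Stag3, Hormad1, Sycp3 and Sycp1, and in neither Stra8 nor Rec8. These 4 genes had negative log2 fold changes, as had 8 of the 10, and no test was made of motif against direction. The second window of Syce2, which was not counted, held 1 CACGTG and 1 CNCCTCAG. The counts of these 2 motifs thus depend on the start site taken.

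The 10 genes spanned a wide range of levels. In WT testes, FPKM per gene, which are scaled to transcript length, were 52.7 ± 5.10 (SD, n = 3) for Syce2 and 0.590 ± 0.493 for Stra8 at the ends of the range. Between them came Sycp3 at 23.3 ± 14.2 FPKM, Stag3 at 19.8 ± 4.55 FPKM, Smc1b at 17.9 ± 6.17 FPKM, Syce1 at 13.8 ± 3.02 FPKM, Sycp1 at 13.2 ± 6.92 FPKM, Hormad1 at 12.7 ± 2.35 FPKM, Sycp2 at 7.53 ± 4.79 FPKM and Rec8 at 3.02 ± 0.491 FPKM. Syce2 lay above every other member in all 3 WT libraries, and Rec8 lay above Stra8 in all 3, without overlap. The neighbours from Sycp3 down to Rec8 all overlapped in their library values and cannot be ranked beyond their spread. Rec8 and Stra8, the genes that were higher in the mutants, had the lowest WT means, although Sycp2 was below Rec8 in the library labelled WT 3.

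**Figure D1:**
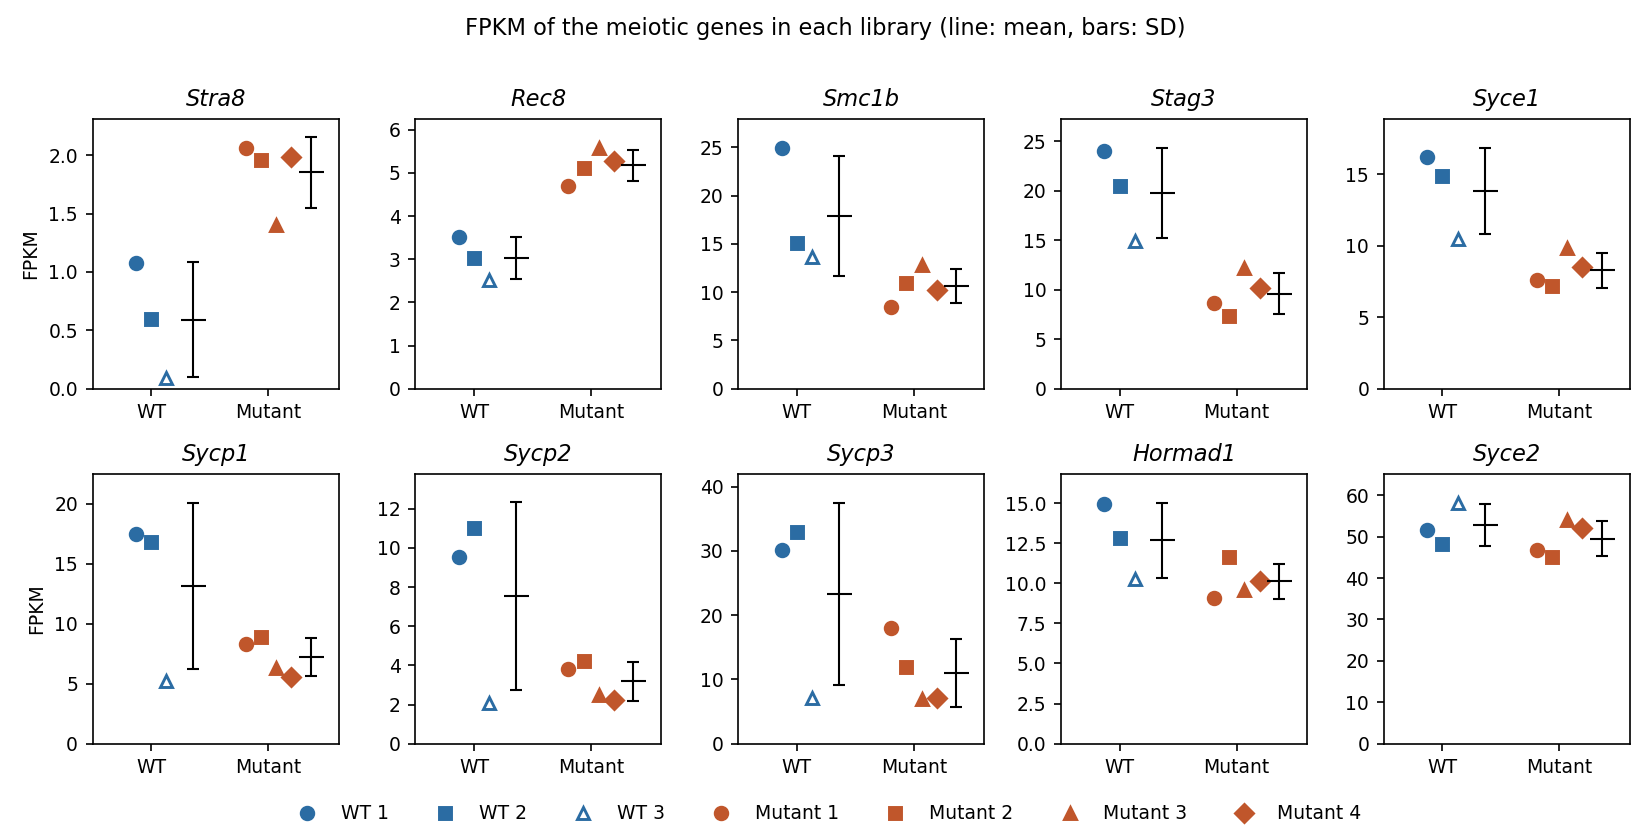
FPKM of the 10 genes in each library, with an axis per gene that starts at 0. Blue points are the 3 WT libraries, the open triangle is the library labelled WT 3, orange points are the 4 Mutant libraries, and the line and bars are the mean and SD. Stra8 and Rec8 are higher in all Mutant libraries, Smc1b, Stag3 and Syce1 are lower in all, and Sycp1, Sycp2 and Sycp3 have the open triangle among or below the Mutant points.

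Stra8, the meiotic entry gene, was higher in the mutants. Its FPKM were 1.08, 0.601 and 0.0911 in the libraries labelled WT 1, WT 2 and WT 3, and 2.06, 1.96, 1.4 and 1.98 in Mutant libraries 1 to 4. Every Mutant library was above every WT library, and the library labelled WT 3 was the lowest of the 7. The log2 fold change, on the log2(FPKM + 0.5) scale used throughout, was 1.21 ± 0.30 (SE), with a 95% interval of 0.53 to 1.89, an exact two-sided permutation p of 0.0286 and a limma adjusted p of 0.17. The exact p is the smallest that 3 against 4 libraries allow. These levels remain low: the Mutant mean of 1.85 ± 0.305 FPKM (SD, n = 4) was below the WT mean of each of the other 9 genes.

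Rec8, the meiotic kleisin that closes the cohesin ring, had 3.51, 3.04 and 2.53 FPKM in the WT libraries in label order and 4.71, 5.12, 5.58 and 5.28 FPKM in the Mutant libraries. The groups did not overlap, and both had a narrow spread, 3.02 ± 0.491 FPKM (SD, n = 3) against 5.17 ± 0.365 FPKM (SD, n = 4). The log2 fold change was 0.69 ± 0.11 (SE), with a 95% interval of 0.43 to 0.95, an exact permutation p of 0.0286 and a limma adjusted p of 0.112. Both genes with higher values thus had groups apart, Stra8 with the larger SE on the log2 scale.

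Together 2 of the 10 genes were higher without overlap, against 7.31% of all genes tested, and 3 were lower without overlap, against 7.59%. The 3 lower genes were Stag3, Smc1b and Syce1. Stag3, the meiotic form of the STAG subunit, had 24.0, 20.5 and 14.9 FPKM in the WT libraries and 8.70, 7.39, 12.2 and 10.1 FPKM in the Mutant libraries. The Mutant mean was close to the level of 0.499 times WT on the fitted scale, a log2 fold change of -1.0 ± 0.19 (SE) with a 95% interval of -1.44 to -0.56, an exact permutation p of 0.0286 and a limma adjusted p of 0.136. Smc1b, the meiotic SMC1 ATPase, had 25, 15.1 and 13.6 FPKM in the WT libraries and 8.49, 11, 12.8 and 10.3 FPKM in the Mutant libraries. Here the groups were separated by a narrow gap, between 12.8 and 13.6 FPKM, and the log2 fold change was -0.69 ± 0.21 (SE; exact permutation p = 0.0286; limma adjusted p = 0.193). Syce1 had 16.2, 14.9 and 10.4 FPKM in the WT libraries and 7.57, 7.15, 9.85 and 8.5 FPKM in the Mutant libraries. The difference on the log2 scale was -0.70 ± 0.16 (SE), with an exact permutation p of 0.0286 and a limma adjusted p of 0.168. In all 3 genes the library labelled WT 3 was the lowest WT library and still above every Mutant library.

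The 3 meiotic cohesin genes thus did not move in one direction. A ratio of 2 genes within a library does not depend on how the libraries were scaled. The Rec8 to Stag3 ratio of FPKM was 0.146, 0.148 and 0.169 in the WT libraries and 0.541, 0.692, 0.457 and 0.520 in the Mutant libraries. All 3 WT libraries lay close together, the library labelled WT 3 included, and below the mutants, with a difference of 1.82 between the means on the log2 scale. The Rec8 to Smc1b ratio was 0.176 ± 0.0314 (SD, n = 3) in WT and 0.493 ± 0.0523 (SD, n = 4) in Mutant libraries, again without overlap. Since Rec8 was higher and Stag3 and Smc1b lower in every Mutant library, these 2 ratios had to separate the groups. They give the size of the split, and their exact permutation p is not read as a test. Between the 2 lower subunits the ratio of Smc1b to Stag3 was 0.897 ± 0.153 in WT and 1.13 ± 0.238 in Mutant libraries, with overlap (exact permutation p = 0.171 for 3 and 4 libraries). With the 3 ratios further below, 6 ratios were computed, chosen with the values of the genes known. The Benjamini-Hochberg adjusted p of this exact test over the 6 was 0.257. The 6 include the 2 ratios that had to separate the groups, which hold the lowest exact p. Values adjusted over the 6 can therefore be too low for the other ratios, and no call rests on them.

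Measured against their mitotic paralogs, the 3 subunits split in the same way. Smc1b made up 22.5%, 14.7% and 14.0% of the summed FPKM of Smc1a and Smc1b in the WT libraries and 9.41%, 11.3%, 13.5% and 10.5% in the Mutant libraries. Stag3 made up 11.4% ± 2.57 (SD, n = 3) of the STAG transcripts in WT and 5.67% ± 1.29 (SD, n = 4) in Mutant libraries. Rec8 made up 3.49% ± 0.357 of Rad21, Rad21l and Rec8 in WT and 6.04% ± 0.505 in Mutant libraries. None of the 3 shares overlapped between the groups. The FPKM of the 3 subunits were themselves apart between the groups, so the shares give the size of the change beside the paralogs and are not tested again. Log2 fold changes of the mitotic paralogs were -0.03 for Smc1a, -0.03 for Rad21, 0.01 for Stag1 and 0.09 for Stag2, while that of Rad21l, a second meiotic kleisin that makes up a small part of its sum, was -0.74. The mitotic paralogs are used by all dividing cells, so each share sets a germ cell transcript beside transcripts of the whole tissue.

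**Figure D2:**
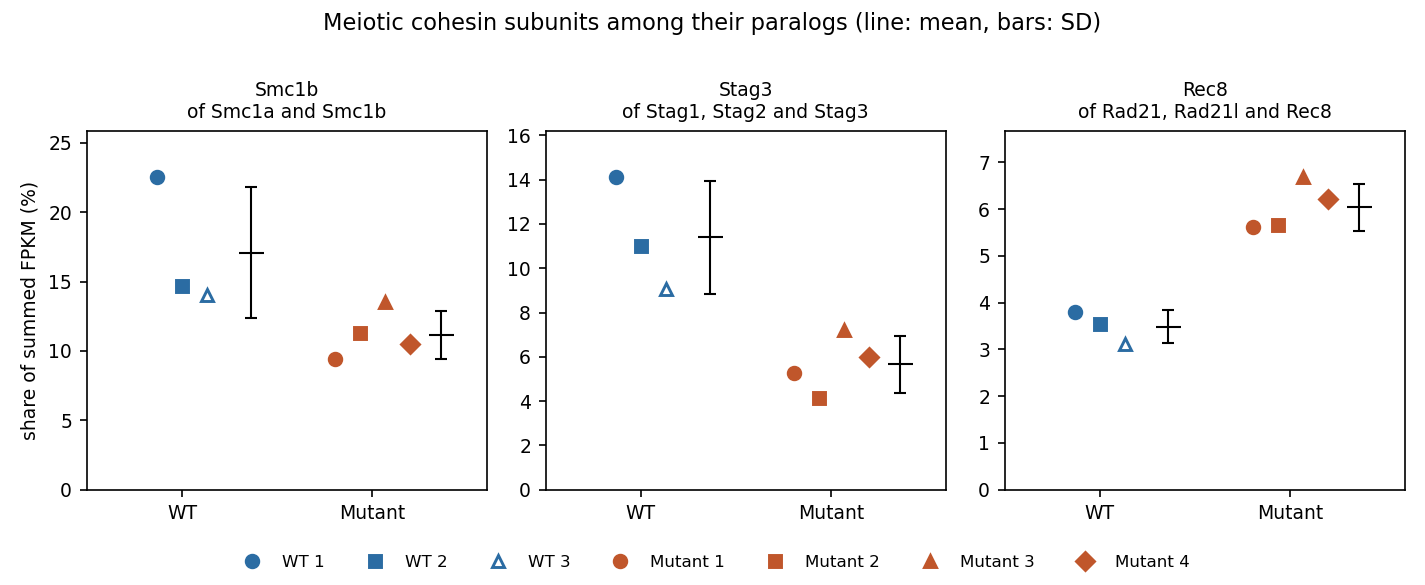
Share of each meiotic cohesin subunit in the summed FPKM of its paralog group, in percent, for the 3 WT (blue; open triangle, library labelled WT 3) and 4 Mutant libraries (orange), with mean and SD. The Smc1b and Stag3 shares are lower in all 4 Mutant libraries and the Rec8 share is higher in all 4, with means of 3.49% and 6.04%.

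The axis and transverse filament genes showed a second pattern, which divided the WT libraries. Sycp3, a main component of the axis, had 30.1 and 32.9 FPKM in the libraries labelled WT 1 and WT 2, 7.05 FPKM in the library labelled WT 3, and 18.0, 11.9, 6.92 and 7.06 FPKM in the Mutant libraries. Sycp2, its partner in the axis, had 9.54, 11 and 2.07 FPKM in WT and 3.81, 4.20, 2.47 and 2.23 FPKM in Mutant libraries. Sycp1, the transverse filament gene, had 17.5, 16.8 and 5.18 FPKM in WT and 8.27, 8.88, 6.30 and 5.56 FPKM in Mutant libraries. For all 3 genes WT 1 and WT 2 were far above every Mutant library, while the library labelled WT 3 was below every Mutant library for Sycp1 and Sycp2 and within the Mutant range for Sycp3. The log2 fold changes were accordingly imprecise, -0.89 ± 0.54 (SE) for Sycp3, -0.90 ± 0.48 for Sycp2 and -0.67 ± 0.38 for Sycp1. Their exact permutation p-values were 0.229, 0.286 and 0.314, and their limma adjusted p-values 0.424, 0.38 and 0.405.

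Within the Mutant group the same 3 genes were higher in libraries 1 and 2 than in libraries 3 and 4, whereas Stag3 and Syce1 were higher in libraries 3 and 4 than in 1 and 2. Across the 7 libraries the Pearson r of Sycp3 was 0.964 with Sycp2 and 0.959 with Sycp1, but 0.544 with Stag3, 0.614 with Syce1 and -0.355 with Rec8. These correlations are over 7 libraries that share depth and tissue make-up and describe them only. The Sycp3 to Sycp1 ratio was 1.68 ± 0.299 (SD, n = 3) in WT and 1.47 ± 0.484 (SD, n = 4) in Mutant libraries and overlapped between the groups (exact permutation p = 0.457, adjusted over the 6 ratios 0.549). The Sycp3 to Stag3 ratio, in contrast, reached from 0.472 in the library labelled WT 3 to 1.6 in WT 2 and from 0.567 to 2.07 within the Mutant group, so that the range within each group covered the difference between the group means (exact permutation p = 0.857 for 3 and 4 libraries, also after adjustment over the 6 ratios).

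The genes whose log2(FPKM + 0.5) ran most like that of a member over the 7 libraries were different for each pattern. For Stra8 they were Mafk (Pearson r = 0.982), Lhfp (0.975) and Syt13 (0.974), and Rec8 came at rank 57 with an r of 0.911. For Rec8 they were Kcnk3 (Pearson r = 0.986), Trh (0.985) and Osbpl11 (0.973). For Sycp3 they included Pet2 (Pearson r = 0.991) and Dppa4 (0.991), a gene known from pluripotent and germ cells, with Sycp2 at rank 56 and Sycp1 at rank 76.

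Hormad1, which marks unsynapsed axes, had 15, 12.8 and 10.3 FPKM in the WT libraries and 9.11, 11.6, 9.61 and 10.1 FPKM in the Mutant libraries. WT 1 and WT 2 were above all mutants and the library labelled WT 3 was within the Mutant range. The log2 fold change of -0.30 ± 0.13 (SE) had an exact permutation p of 0.114 and a limma adjusted p of 0.292. Over all genes tested, 7.4% had WT 1 and WT 2 above every Mutant library with WT 3 in the Mutant range, and 2 of the 10 genes, Sycp3 and Hormad1, did so.

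Syce2 had 51.7, 48.2 and 58.2 FPKM in the WT libraries and 46.8, 45.1, 54.1 and 52.0 FPKM in the Mutant libraries. The groups overlapped, and the library labelled WT 3 was here the highest of the 7, unlike in the other 9 genes. The log2 fold change of -0.09 ± 0.09 (SE) had a 95% interval of -0.29 to 0.12, so a fall as large as that fitted for Syce1 lay outside it, and the exact permutation p was 0.429 (limma adjusted p = 0.643). The Syce2 to Syce1 ratio was 3.19 and 3.24 in WT 1 and WT 2, 5.58 in the library labelled WT 3 and 5.49 to 6.30 in the Mutant libraries (exact permutation p = 0.0571 for 3 and 4 libraries, adjusted over the 6 ratios 0.114). The groups overlapped, with the library labelled WT 3 at the mutant value of the ratio, and a difference between the 2 central element genes was not shown.

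**Figure D3:**
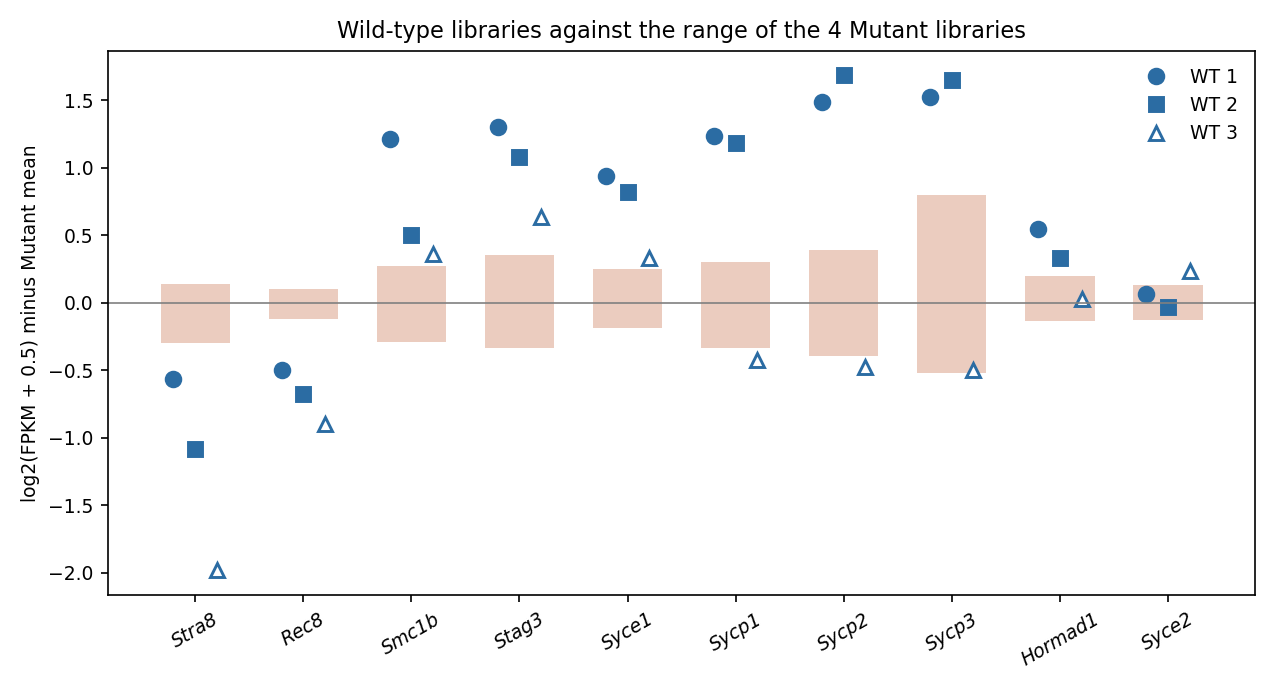
The 3 WT libraries of each gene against the range of the 4 Mutant libraries (orange band), on the log2(FPKM + 0.5) scale with the Mutant mean at 0. The library labelled WT 3 (open triangle) is on the WT side of the band for Stra8, Rec8, Smc1b, Stag3 and Syce1, below the band for Sycp1 and Sycp2, inside it for Sycp3 and Hormad1, and above it for Syce2.

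Without the library labelled WT 3, 9 of the 10 genes did not overlap between 2 WT and 4 Mutant libraries, 2 higher (15.6% of all genes tested) and 7 lower (17.1% of all genes tested). On this count Syce2 was the exception. In the limma fit without that library 6 of the 10 genes passed an adjusted p of 0.05, Rec8 as higher (1.16% of all genes tested were called higher) and Stag3, Syce1, Sycp1, Sycp2 and Sycp3 as lower (3.99%). The log2 fold change of Rec8 was then 0.59 with a limma adjusted p of 0.0261, and that of Stag3 -1.19 with an adjusted p of 0.0145. Syce1 had -0.88, Sycp1 -1.21 and Sycp2 -1.58, each with a limma adjusted p of 0.0128, and Sycp3 had -1.58 with an adjusted p of 0.0466. Stra8 (log2 fold change 0.83, limma adjusted p = 0.0523), Smc1b (-0.85, 0.0618) and Hormad1 (-0.44, 0.0688) did not pass. The library labelled WT 3 was singled out after its values were seen. Over all genes, 722 passed the limma threshold without it, against 2 without WT 1 and 5 without WT 2. The calls without WT 3 thus depend on which library was left out. Over the FPKM alternatives tried, the limma adjusted p ranged from 8.82e-06 to 0.352 for Rec8, from 0.0145 to 0.352 for Stag3, from 0.0128 to 0.91 for Syce1, from 0.0128 to 0.814 for Sycp1, from 0.0128 to 0.685 for Sycp2 and from 0.0466 to 0.729 for Sycp3. For Stra8 it ranged from 5.98e-08 to 0.358, for Smc1b from 0.0618 to 0.887, for Hormad1 from 0.0688 to 0.595 and for Syce2 from 0.0178 to 0.939. The low ends for Stra8, Rec8 and Syce2 come from the fit relative to germ cell transcripts described below, in which 85.6% of all genes were called higher. Without that fit the lowest limma adjusted p was 0.0523 for Stra8, 0.0261 for Rec8 and 0.424 for Syce2.

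Transcripts that mark germ cells were lower in the mutants as a group. Their mean log2(FPKM + 0.5) over 12 reference genes with no member among them was 4.83, 4.03 and 4.31 in the WT libraries and 3.62, 3.5, 3.85 and 3.69 in the Mutant libraries. The groups did not overlap, and the difference of -0.72 had an exact permutation p of 0.0286. Of the 12 genes, 11 had a negative log2 fold change, 8 were lower at an unadjusted p under 0.05 in limma and none passed the adjusted threshold. Over all genes tested, 6694 of 13988 had a negative log2 fold change and 8.79% were lower at that unadjusted p. The largest fall was that of Dnd1, an RNA-binding protein needed for germ cell survival, at -1.14 ± 0.30 (SE), and the only positive value was that of L1td1 at 0.21 ± 0.45. Summed FPKM of the list were 623 to 1360 in WT and 492 to 633 in Mutant libraries, with the lowest WT sum in the library labelled WT 3. The mean of logs was instead lowest in WT 2. There L1td1, Rhox6 and Rhox9 had 2.45, 1.13 and 0.835 FPKM, against 9.6, 8.68 and 12.3 in WT 3. Tfap2c and Elavl2 were also lower in WT 2 than in WT 3, while Dazl, Ddx4, Dnd1, Dppa3, Pou5f1, Sall4 and Utf1 were higher. In bulk RNA, fewer germ cells and less of these transcripts per germ cell cannot be told apart.

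Relative to the mean of the germ cell reference in each library, the split looked different for the lower genes. Stag3 then had a log2 fold change of -0.28 ± 0.25 (SE), about 1 SE below no difference. Smc1b had 0.04, Syce1 0.03, Sycp1 0.06, Sycp2 -0.17 and Sycp3 -0.17, each within 1 SE of no difference. Their sign was thus kept for Stag3, Sycp2 and Sycp3 and turned for Smc1b, Syce1, Sycp1, Hormad1 (0.42) and Syce2 (0.64). Stra8 and Rec8 were higher by 1.94 ± 0.30 and 1.42 ± 0.26, and with Syce2 they were the 3 genes without overlap on this scale. The share of all genes without overlap on this scale was not computed, so this count has no background. This scale raises the median of all genes by 0.73 and has 85.6% of genes called higher, so it describes the 10 genes against germ cell transcripts and not against the tissue. Against that median, Syce2 and Hormad1 were below the typical gene, and Stra8 and Rec8 remained above it.

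**Figure D4:**
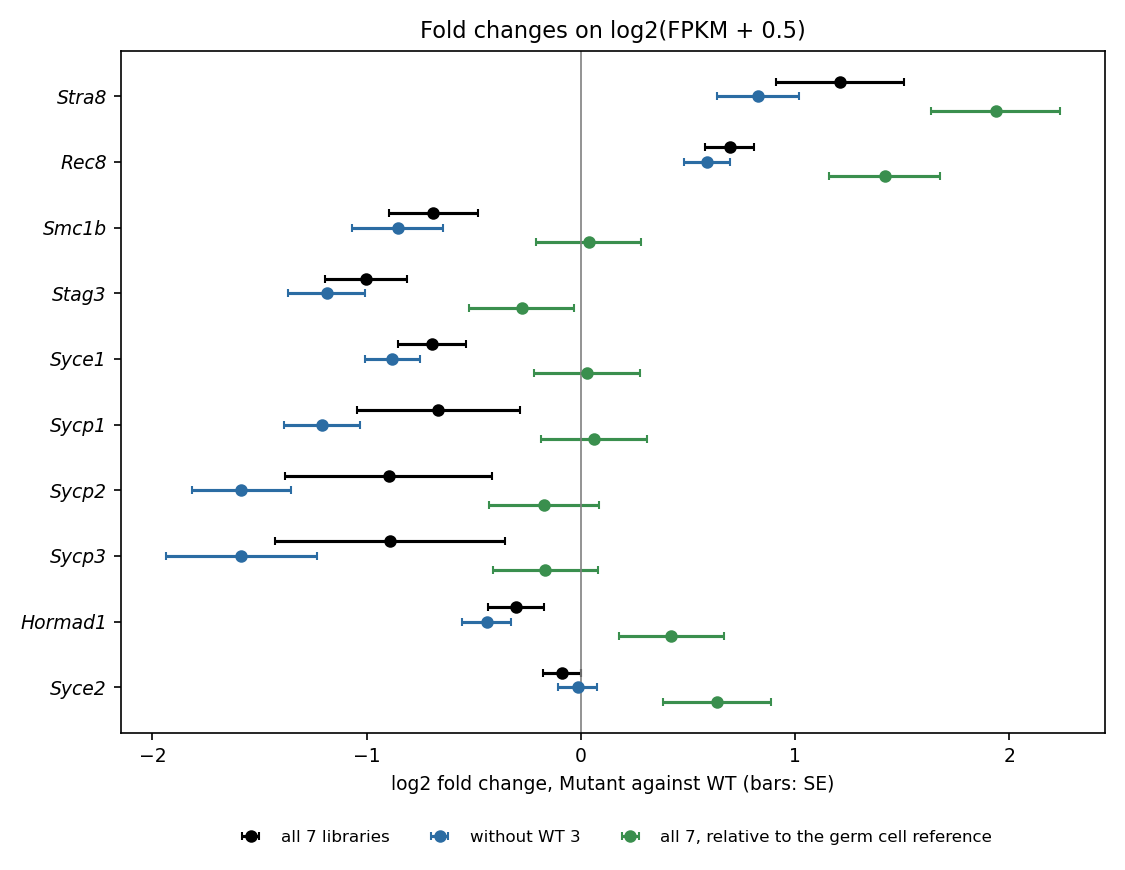
Log2 fold change of the 10 genes, Mutant against WT, with its SE, in 3 fits: all 7 libraries (black), without the library labelled WT 3 (blue), and all 7 libraries relative to the mean of 12 germ cell reference genes (green). Stra8 and Rec8 are above 0 in all 3 fits, and Smc1b, Syce1 and Sycp1 move from negative values to between 0.03 and 0.06 in the green fit.

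A second readout of the same libraries came from reads in repeat elements that lie wholly inside the body of a gene and of no other gene. The libraries were made without poly-A selection, so reads from introns are present, and most of these elements do not overlap an annotated exon. By reads this held less well: 85.2% of the reads of Sycp3, 57.2% of those of Syce2, 44.8% of those of Rec8 and 43.2% of those of Hormad1 lay in elements over an exon, against 0% to 17.7% for the other genes. Rec8 had 105 such reads over 11 elements, 12, 5 and 12 in the WT libraries and 17, 18, 21 and 20 in the Mutant libraries. As CPM, which scale each library to its TMM-adjusted total of repeat reads inside genes, this was 2.76 ± 0.948 (SD, n = 3) in WT and 6.54 ± 0.692 (SD, n = 4) in Mutant libraries, without overlap, a log2 fold change of 1.21 ± 0.31 (SE; edgeR adjusted p = 0.189). Leaving out 1 element that overlaps an annotated exon left 58 reads, under the filter of a mean of 10 per library. Stra8 had 13 reads in all, 2, 0 and 0 in WT and 3, 2, 3 and 3 in Mutant libraries, too few to test.

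In this readout the edgeR test called none of the 9 genes tested at an adjusted p of 0.05, as did DESeq2, where 0.00815% of all genes passed in edgeR. At an unadjusted p under 0.05, edgeR had 1 gene higher (6.65% of all genes) and 5 lower (5.95% of all genes). Groups did not overlap for Rec8, higher (5.32% of all genes), and for Stag3, Hormad1 and Syce1, lower (5.25%). Stag3 had 53.2, 48.6 and 50.6 CPM of repeat reads in WT and 28.9, 23.1, 37.3 and 41.9 in Mutant libraries, a log2 fold change of -0.63 ± 0.17 (SE; edgeR adjusted p = 0.196). Syce1 had 12.9, 12.9 and 7.35 CPM in WT and 2.69, 5.69, 7.04 and 4.66 in Mutant libraries, with a log2 fold change of -1.14 ± 0.31 (SE; edgeR adjusted p = 0.201). Both genes kept the direction of their FPKM, with the library labelled WT 3 above every Mutant library.

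Sycp1 had the most reads of the 10 genes in this readout, and these also divided the WT libraries. It had 132, 131 and 26.5 CPM of repeat reads in the WT libraries and 53.8, 58.4, 37.7 and 33.3 in the Mutant libraries. As in FPKM, the library labelled WT 3 was below every Mutant library. The log2 fold change was -1.07 ± 0.39 (SE; edgeR adjusted p = 0.296), and -1.52 with an adjusted p of 0.00078 without that library, over 12285 genes of which 0.912% were called lower. Sycp2 had 73, 62.2 and 27.4 CPM in WT and 33.3, 43.1, 29.9 and 24.0 in Mutant libraries, and its edgeR adjusted p went from 0.298 to 0.0127 without the library labelled WT 3. Over the alternatives of this readout the edgeR or DESeq2 adjusted p of Sycp1 ranged from 0.00078 to 0.68 and that of Sycp2 from 0.0127 to 0.711.

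The other genes were less clear in repeat reads. Smc1b had 56.5, 26.2 and 44.7 CPM in WT and 31.3 to 35.9 in Mutant libraries, so that here WT 2 was below the mutants, and its log2 fold change was -0.34 ± 0.20 (SE; edgeR adjusted p = 0.52). Hormad1 had -0.37 ± 0.17 (edgeR adjusted p = 0.385) and Syce2 -0.19 ± 0.18 (edgeR adjusted p = 0.713). For Sycp3 the value of -0.06 ± 0.12 (edgeR adjusted p = 0.887) cannot be assigned to the gene: all 25 elements with reads also lie, by the GENCODE M21 annotation, in Chpt1, a gene of phospholipid synthesis on the other strand, and the libraries do not keep strand. Without the 7 elements over annotated exons, 147 reads remained and the log2 fold change was -0.62 ± 0.26 (edgeR unadjusted p = 0.0322, adjusted p = 0.386), with the same limit on assignment. Over the alternatives of this readout the adjusted p of Sycp3 ranged from 0.386 to 0.988. Chpt1 itself had 21.7 ± 0.461 FPKM (SD, n = 3) in WT and 22.9 ± 1.64 (SD, n = 4) in Mutant libraries and showed nothing of the division among the WT libraries seen for Sycp3. Syce2 overlaps Gcdh on the other strand, and Gcdh had a log2 fold change of 0.10 in FPKM.

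**Figure D5:**
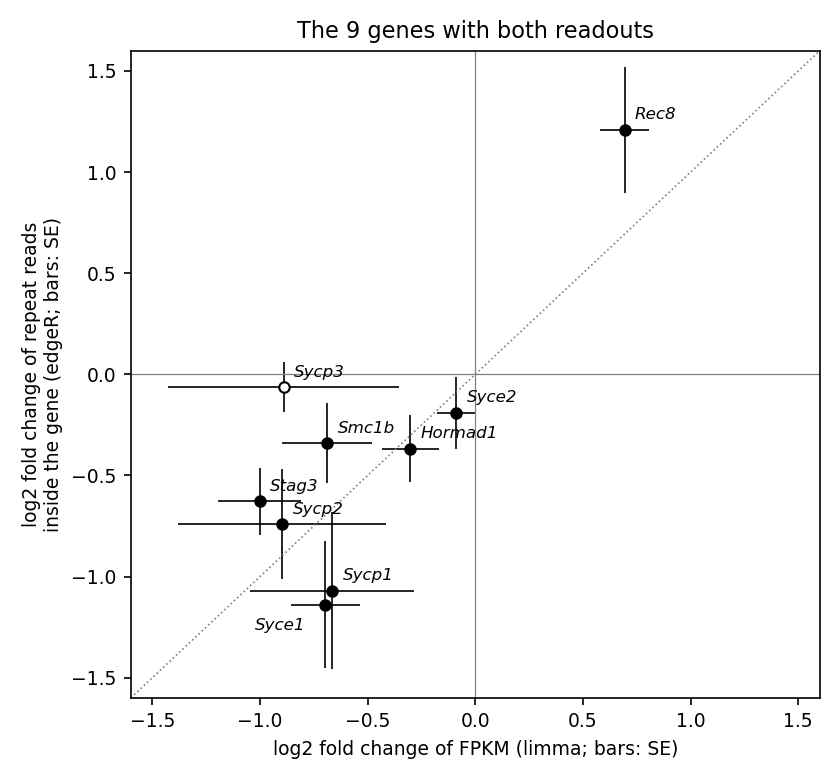
Log2 fold change of FPKM (horizontal, limma) against that of repeat reads inside the gene (vertical, edgeR) for the 9 genes with enough reads, with SE on both axes and a dotted line of equality. Rec8 is positive in both and the other 8 are at or below 0 in both; the open point is Sycp3, whose repeat reads cannot be told from those of Chpt1.

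Further genes of the same machinery were lower or level, and none tested in the axis, synaptonemal and cohesin lists had a log2 fold change above 0.09. Of 9 other axis and synaptonemal genes, 9 had a negative log2 fold change, beside 6694 of all 13988 genes tested. Their median was -0.76 against 0.01 for all genes tested. In limma 3 were lower at an unadjusted p under 0.05 (8.79% of all genes) and none at an adjusted one. Without the library labelled WT 3 the median was -1.3. The largest fall was that of Fkbp6, a germ cell co-chaperone, at -1.10 ± 0.29 (SE; limma adjusted p = 0.177), with 48.6 FPKM on average in WT and 21.8 in Mutant libraries. The central element partners Syce3 (-0.85 ± 0.45) and Tex12 (-0.76 ± 0.39) went with the rest of the list, with log2 fold changes below that of Syce2. In 4 of the 9, WT 1 and WT 2 were above all mutants and the library labelled WT 3 was in the Mutant range. Over all genes tested, 7.4% had this arrangement. Without that library 6 of the 9 passed the adjusted threshold in limma as lower, beside 3.99% of all genes.

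The other meiotic cohesion genes, 4 tested, were all negative with a median of -0.21. Of all 13988 genes tested, 6694 had a negative log2 fold change. This list includes Smc3 and Sgol1, which also serve in mitosis. In limma 2 of the 4, Sgol2a and Smc3, were lower at an unadjusted p under 0.05 (8.79% of all genes were lower at that p) and none at an adjusted one. Rad21l, the second meiotic kleisin, had the largest fall at -0.74 ± 0.45 (SE), from 1.44 FPKM in WT to 0.509 in Mutant libraries on average (limma adjusted p = 0.424), so the 2 meiotic kleisins had opposite signs. The mitotic cohesin list, 12 tested, had 2 positive and 10 negative values with a median of -0.07, from Stag2 at 0.09 ± 0.07 to Esco2, an acetyltransferase that establishes cohesion in S phase, at -0.43 ± 0.07 (limma adjusted p = 0.112). For 3 of the 12, Esco2, Cdca5 and Esco1, the Mutant libraries were lower without overlap, against 7.59% of all genes.

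Regulators of meiotic entry were mostly lower or level. Of 13 tested, 12 had a negative log2 fold change, with a median of -0.26, beside 6694 of all 13988 genes tested. In limma 4 were lower at an unadjusted p under 0.05 (8.79% of all genes) and none at an adjusted one. The list holds repressors such as Nanos2 and E2f6 beside factors that promote entry, so a shared direction has no single reading. Dazl in this list is also a gene of the germ cell reference. The largest fall was that of Nanos2, which represses meiotic transcripts in male germ cells, at -0.99 ± 0.89 (SE; limma adjusted p = 0.598), with 16.2, 20.1 and 1.06 FPKM in WT and 9.63, 4.27, 2.02 and 1.81 FPKM in Mutant libraries. Nanos2 thus had the arrangement of Sycp1 and Sycp2, with the library labelled WT 3 below every Mutant library, and without that library its log2 fold change was -2.18 (limma adjusted p = 0.0632). The one positive value was that of E2f6, a repressor of germ cell genes, at 0.06 ± 0.07. Of 7 retinoic acid target genes tested, 4 were positive and 3 negative with a median of 0.03, from Dhrs3, a retinaldehyde reductase, at 0.20 ± 0.12 to Crabp2, a retinoic acid binding protein, at -0.30 ± 0.07 (limma adjusted p = 0.169). Cyp26a1, a retinoic acid hydroxylase often read as a sign of retinoic acid signalling, did not exceed 0.131 FPKM in any library.

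Other cell types of the gonad were checked beside these results. Of the ovarian somatic genes Foxl2 stayed at or under 0.096 FPKM, and 5 tested genes had a median log2 fold change of 0.08, from Fst at 0.50 ± 0.20 to Lgr5 at -0.14 ± 0.12. All 8 Sertoli cell genes had positive values, as had 7294 of all 13988 genes tested, with a median of 0.18, the largest that of Cst9 at 0.27 ± 0.08, and summed FPKM of 1010 to 1270 in WT and 1230 to 1410 in Mutant libraries. All 6 fetal Leydig cell genes were positive with a median of 0.47, up to Insl3 at 0.66 ± 0.12, and sums of 1600 to 2670 in WT and 2510 to 3080 in Mutant libraries. The 4 adrenal cortex genes had a median of 0.30, up to Cyp11b1 at 0.80 ± 0.31, and sums of 14.8 to 18.6 in WT and 18.7 to 25.4 in Mutant libraries. Of the mesonephric genes, 3 were tested, from Pax8 at 0.04 ± 0.17 to Lhx1 at -0.79 ± 0.21. No gene of these lists passed the adjusted threshold in limma, and their part in the values of the 10 genes was not tested.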

How the data were processed

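RNA from 3 WT and 4 Mutant pairs of testes was sequenced as unstranded libraries. The authors aligned reads to mm10 with TopHat2 2.0.12 and used Cuffquant and Cuffnorm with RefSeq gene models for the deposited FPKM, and they counted uniquely mapped reads per RepeatMasker LINE, SINE and LTR element with HTSeq-count, deposited as raw counts. The header of both tables lacks a tab between 2 library names, so columns were read by position in the order of those names. The authors' own test, Cuffdiff, needs aligned reads and was not run.

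The main test was limma 3.58.1 (lmFit, eBayes with trend; R 4.3.3) on log2(FPKM + 0.5). It took in every gene averaging 0.5 FPKM or more, and p-values were adjusted over all of these by Benjamini-Hochberg with a threshold of 0.05. Such fold changes understate those of low genes such as Stra8. Repeat counts were summed over elements wholly inside 1 gene body, with bodies from the FPKM table, and compared by edgeR 4.0.16 (TMM, quasi-likelihood test) where a gene averaged 10 reads or more. DESeq2 1.42.0 was an alternative. Overlaps with annotated exons were made with GENCODE M21 and bedtools 2.31.1. For single values an exact permutation test, two-sided, enumerated the 35 ways to assign 3 of 7 libraries to one group, and its smallest p is 0.0286. The limma and edgeR steps were run on simulated data with planted changes. This checks the code and does not measure the power for changes of the size seen here. Python 3.11.15 served for the rest. Counts rest on 3454317 to 4670830 repeat reads per library, and the edgeR errors cover their sampling.

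The 10 genes, the gene lists and the ratios were chosen with earlier results of these data known. The lists gave 107 of 109 symbols a row; Meiosin and Sycp2l had none. Named genes were all 10 members, Glis3, the largest rise and fall of each list, and the 3 genes most like Stra8, Rec8 and Sycp3, of which 1 is not reported here; other list genes named, such as Syce3, Tex12, Cyp26a1 and the paralogs, were chosen after their values were seen. Replicates were separate embryos. Replicate numbers do not pair the libraries, as no source ties a number to a litter or day.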

Additional observations from a re-analysis of the deposited data

Results flagged for a closer look

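Of 22 values tested for an isolated library, 1 stood out. The Stra8 level of 1.4 FPKM in Mutant library 3 was the lowest of the 4 Mutant libraries, and its gap to the next one made up 0.843 of the range of the group. Chance alone sets apart about 1 in 20 groups. This library was still above every WT library for Stra8 and had the highest Rec8 level of the 7, 5.58 FPKM.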

How the results depend on the processing

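Over 284 alternative fits of the 10 genes, 267 kept direction and side of the threshold and 7 turned sign. The threshold was passed in 11 fits, 8 without the library labelled WT 3 and 3 relative to the germ cell reference (Stra8, Rec8 and, with its sign turned, Syce2), and none was past it at first. Relative to that reference 5 FPKM values turned positive: Smc1b 0.036, Hormad1 0.42, Sycp1 0.06, Syce1 0.029 and Syce2 0.64 (log2 fold change). The Sycp3 value in repeat reads turned to 0.025 under the replicate block, and ranged from -0.11 to 0.026 without 1 library, with 0.026 without Mutant replicate 4; its largest move was to -0.62 without elements over annotated exons.

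The count of genes past the threshold in FPKM, 1 at first, was 4 with no filter, 3 with quantile normalization, 12007 relative to the germ cell reference and 1 to 722 without 1 library, the 722 without the library labelled WT 3 (5 without WT 2). In repeat reads, 1 at first, it was 48 with DESeq2, 47 with no filter, 28 without elements over annotated exons (chosen after seeing the data) and 0 to 138 without 1 library, the 138 without the library labelled WT 3 (21 without WT 2). The members whose groups did not overlap, 5 at first, were 3 relative to the germ cell reference, with no share over all genes computed. They were 5 to 9 without 1 library, the 9 without the library labelled WT 3.

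With replicate number as a block, 0 genes passed in FPKM by limma (1726 at an unadjusted p under 0.05) and 0 in repeat reads by edgeR (1143 unadjusted), and no call of the 10 genes changed. Deviations of same-numbered libraries from their group means correlated at 0.2, -0.18 and 0.23, and not every library correlated best with its own number. The causes of these changes were not tested. Read depth limits Stra8 and Rec8 in repeat reads, and 3 against 4 libraries cannot give an exact p below 0.0286.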
